A study of Homo sapiens with 6 samples.

Results

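The members described here are the genes that encode the proteins of the cytosolic ribosome. They were chosen by name from the count table: the rows annotated as protein coding whose symbol starts with RPL or RPS followed by a number, with RPLP or with RPSA, leaving out the RPS6K kinases. This gave 89 of the 34036 rows of the table. The rule takes in 46 core genes of the large subunit and 31 of the small subunit, 9 paralogs of core genes, 2 readthrough rows that join a ribosomal protein gene to its neighbour (RPL17-C18orf32 and RPS10-NUDT3), and RPS19BP1, which encodes a protein that binds RPS19. The rule uses symbols and no measured value.

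RNA was sequenced from HepG2, a human hepatocellular carcinoma cell line, 48 h after transfection with siRNA. Cells of the siDGUOK group received a pool of siRNAs against DGUOK, which encodes the mitochondrial kinase that phosphorylates purine deoxynucleosides. Cells of the siControl group received a non-targeting siRNA, and both groups were transfected with the same lipid reagent. Each group has 3 independent replicates handled in parallel, and the comparison asks how the transcripts differed after knockdown of the kinase. The groups were taken from the sample titles, because the treatment field of the labels gives siControl for all 6 samples.

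The ribosome is built from ribosomal RNAs and a fixed set of proteins, nearly all present in 1 copy, which bind the RNAs in the nucleolus and are exported as subunits. The mRNAs of these proteins are among the most abundant in growing cells, are short, and in vertebrates start with a C followed by a tract of pyrimidines (the TOP motif) through which mTORC1 and LARP1 control their translation and stability. In hepatocytes the ribosome serves a heavy output of secreted plasma proteins.

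The library totals were 19065684, 18915508 and 10527216 counts in siControl replicates 1, 2 and 3. They were 18613138, 15978314 and 21334876 counts in siDGUOK replicates 1, 2 and 3. DGUOK itself stood at 54.4, 53.1 and 48.2 CPM (counts scaled to a common library size, with TMM factors) in the siControl libraries and at 9.08, 10.5 and 6.72 CPM in the siDGUOK libraries. Every siDGUOK library was below every siControl library, as the labels state. The log2 fold change of DGUOK was −2.57 with a standard error of 0.19 (edgeR's quasi-likelihood test, Benjamini-Hochberg adjusted p 1.64e-08, n = 3 per group).

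Some libraries stood apart from the others before any member was examined. In siDGUOK replicate 1, 21057 rows had a count, against 16205 to 17583 in the other 5 libraries. Rows that did not pass the count filter, and so were not tested, held 0.774% of its counts. A single T cell receptor segment, TRDJ2, held 58437 of its counts. In siDGUOK replicate 2 the summed level of 4 endothelial transcripts was 58.5 CPM, against 1.39 to 4.48 CPM elsewhere. The liver identity of the cells was visible in all 6 libraries. In siControl libraries ALB was the most abundant of 10 hepatocyte transcripts, at 18800, 14300 and 15300 CPM. In siDGUOK libraries ALB was at 6330, 5590 and 4280 CPM. That was below TF at 7200, 5900 and 5590 CPM and SERPINA1 at 8490, 7430 and 7700 CPM, of which SERPINA1 had a log2 fold change of 0.02. The 10 transcripts summed to 56300, 51000 and 49600 CPM in siControl and to 30200, 27100 and 25700 CPM in siDGUOK libraries, and 8 of the 10 were called lower. Of 6 fibroblast transcripts, 3 could be tested, of which COL1A1 was called higher and PDGFRB lower, while COL1A2, at 0.748, 0 and 0 CPM in siControl and 6.7, 10.4 and 0 CPM in siDGUOK libraries, did not pass (edgeR's adjusted p 0.154). COL3A1 was untested at 0, 0.0533 and 0 CPM in siControl and 8, 15.6 and 0.414 CPM in siDGUOK libraries, and PDGFRA and LUM were at or near 0. The fibroblast transcripts summed to 12.1, 15 and 10.3 CPM in siControl and to 41.3, 55.4 and 21.6 CPM in siDGUOK libraries, higher in every siDGUOK library, and their part in the members' values was not tested. None of the 5 leukocyte transcripts passed edgeR's test at an adjusted or an unadjusted p under 0.05, nor DESeq2's, and LYZ was the most abundant of them, at 1610 to 1900 CPM. Loss of a type of cell and less RNA of that type per cell cannot be told apart in these bulk libraries.

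After DGUOK knockdown most ribosomal protein mRNAs had small positive log2 fold changes, most of which did not pass the test. Of the 84 members that could be tested, 68 had a positive and 16 a negative log2 fold change. The median was 0.15, with quartiles of 0.02 and 0.30, against a median of 0.02 and quartiles of −0.31 and 0.35 over all 14476 genes tested. With no count filter the members' median stayed at 0.15 while that of all genes was 0.14, so the difference of 0.13 became 0.01. The split by sign moved with the setting too, to 65 and 19 with mitochondrial genes left out and to 63 and 21 without siDGUOK replicate 2. Of the 84 members 52 lay within 0.25 of 0, against 5777 of all 14476 genes tested and 71 of the 195 other genes whose mean was 500 CPM or more, and the extremes were −0.48 (RPL36A) and 0.66 (RPL22L1).

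A gene was called when its adjusted p in edgeR's test was under 0.05 and its log2 fold change was above 0.5 in size. By that rule 4 of the 84 members were called higher, RPL22L1, RPL9, RPL7L1 and RPL26, and 0 were called lower, where 7.42% of all genes tested were called higher and 6.68% lower. No member reached the lower limit at an unadjusted p under 0.05 either, and DESeq2 called 3 members higher and 0 lower. By the adjusted p alone, which is how "rose" and "fell" are used from here on, 28 members rose and 3 fell, against 10.3% of all genes rising and 9.35% falling. Both groups of counts depend on abundance, since a highly expressed gene is measured more precisely. Of the 195 other genes tested whose mean was 500 CPM or more, 14.4% were called higher and 20.5% lower, 29.7% rose and 34.4% fell, with a median log2 fold change of −0.06. The members rose at a rate near that of these abundant genes and fell less often, a difference that was not tested. In 34 members every siDGUOK library lay above every siControl library and in 5 every one lay below, where 18.7% and 17.3% of all genes did so and 35.9% and 38.5% of the 195 abundant genes.

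**Figure D1:**
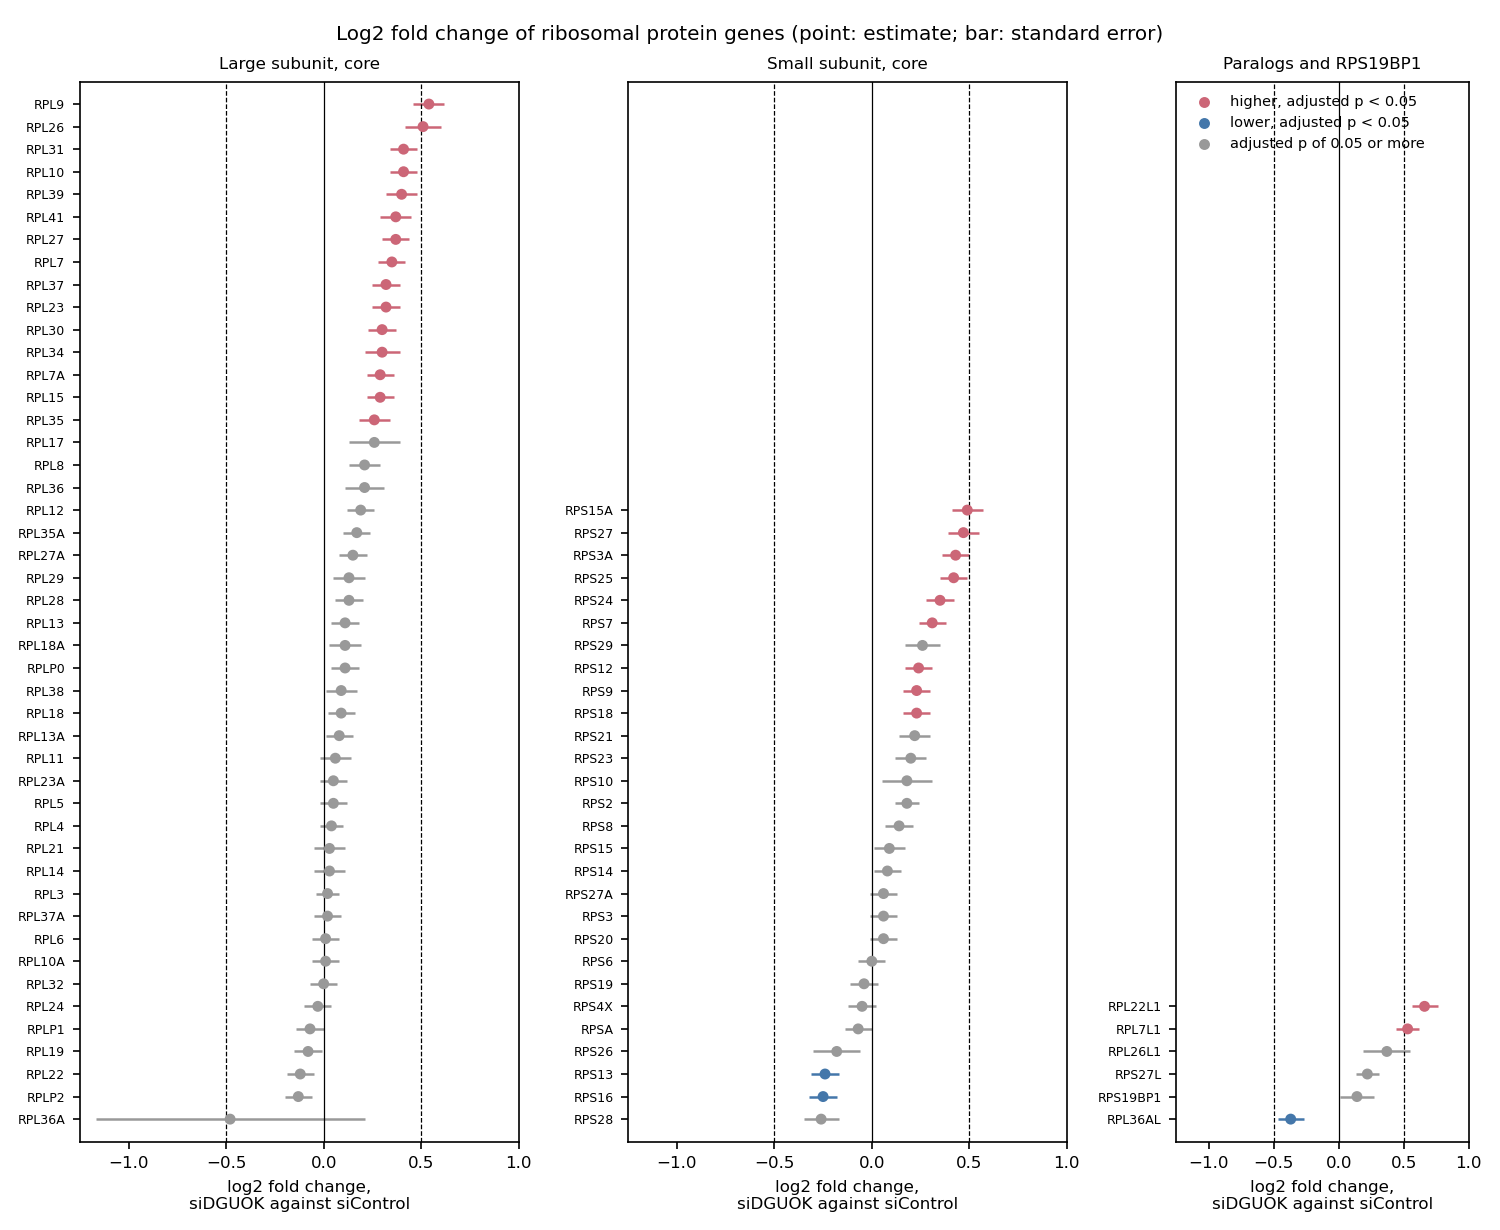
Log2 fold change of siDGUOK against siControl on the x axis for tested members, not all of which are drawn, in panels for the large subunit, the small subunit and the remaining rows. Points are estimates, bars are standard errors, colours mark members with an adjusted p under 0.05 and dashed lines mark 0.5 in either direction. Most points lie between 0 and 0.5, and those of RPL22L1, RPL9, RPL7L1 and RPL26 lie beyond the upper line.

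Taken as a share of each library, the members held 8.45%, 9.50% and 9.06% of counts in siControl replicates 1, 2 and 3. They held 9.92%, 10.6% and 10.4% in siDGUOK replicates 1, 2 and 3. The lowest siDGUOK library was above the highest siControl library, by less than the range among the siControl libraries. The group means were 9.0% ± 0.525 and 10.3% ± 0.357 (SD, n = 3). The binomial 95% intervals of these shares (Wilson) were at most 0.03 percentage points wide and cover counting error only. The replicates differed by more than counting error, with a chi-square per degree of freedom of 22.1 to 72.8 over the members for each pair of replicates of 1 group.

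The single libraries were not alike in these genes. siControl replicate 1 was the lowest of the 6 libraries for 53 of the 84 members, and siDGUOK replicate 2 was the highest for 35 and siDGUOK replicate 3 for 22. siControl replicate 2 was the highest for 17 members. Without siControl replicate 1 the median log2 fold change of the members was 0.11, 2 members were called and 22 rose. Without siControl replicate 2 the median was 0.19, with 4 called and 33 that rose. Without siControl replicate 3 the median was 0.15, with 4 called and 22 that rose. Without siDGUOK replicate 1, the library that stood apart in its untested rows, the median was 0.16, with 5 called and 25 that rose. Without siDGUOK replicate 2 or replicate 3 the median was 0.13, 2 members were called and 24 rose. The hepatocyte transcripts summed to 52300 ± 3540 CPM in siControl and 27700 ± 2310 CPM in siDGUOK libraries, and the members to 90900 ± 4830 and 102000 ± 2390 CPM (SD, n = 3). The part of the hepatocyte transcripts in the members' share was not tested.

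**Figure D2:**
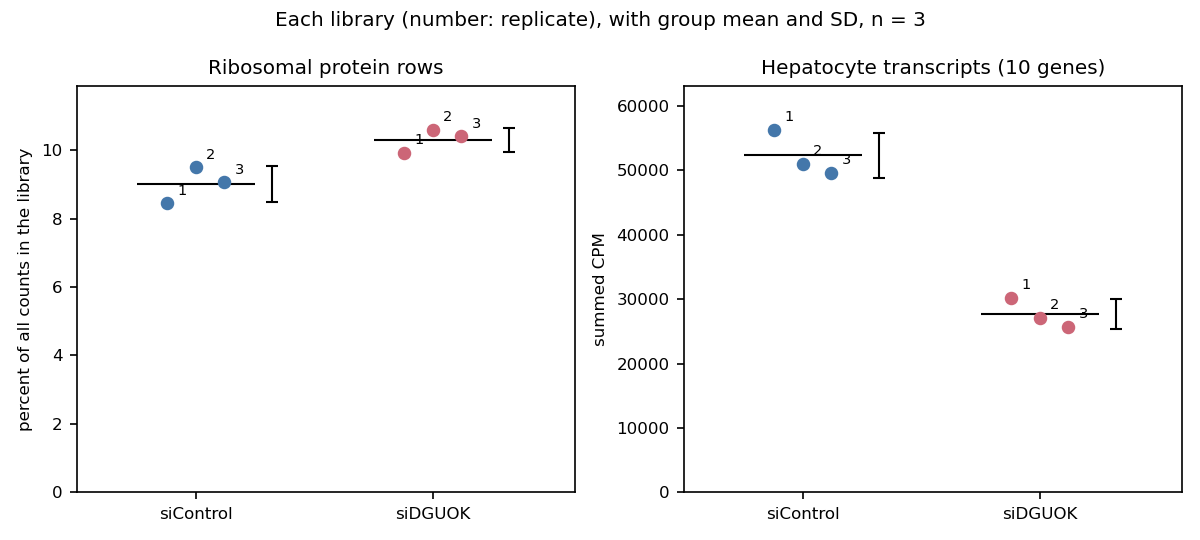
Left, the percent of all counts of a library that fell in the 89 member rows. Right, the summed CPM of 10 hepatocyte transcripts. Each point is a library, numbered by replicate, with the group mean as a line and the SD beside it (n = 3). The member share lies between 8.45% and 10.6%, and the siDGUOK libraries are above the siControl libraries on the left and below them on the right.

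Large and small subunit genes kept nearly the same proportion. The core genes of the large subunit had 1.54, 1.51 and 1.54 counts for each count of the small subunit in siControl libraries and 1.52, 1.48 and 1.50 in siDGUOK libraries. The ranges overlap, and the means were 1.53 ± 0.0146 and 1.50 ± 0.0195 (SD, n = 3). Of the 46 large subunit genes 15 rose and 0 fell, with 20 at an unadjusted p under 0.05, all of them higher, and a median log2 fold change of 0.12. DESeq2 gave 18 that rose and 0 that fell. Of the 31 small subunit genes 11 rose and 2 fell, with a median of 0.18. Over all genes tested 10.3% rose and 9.35% fell, and over the 195 other abundant genes 29.7% rose and 34.4% fell.

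The start sites of the called members, of RPL22 and RPS27 from the paralog pairs, and of the 3 members that fell are shown because the TOP motif is the sequence by which these mRNAs are usually recognised. RPS15A, among the 5 largest rises, had no matched start in RefSeq. Each is 20 bases before and 10 bases from the annotated start in RefSeq on GRCh38.p14, read 5′ to 3′ along the gene's strand, with any run of C or T that begins at the first transcribed base in capitals as far as the window reaches. The windows are chr3:170870186-170870215 for RPL22L1, chr1:6199586-6199615 for RPL22, chr4:39458913-39458942 for RPL9 and chr17:8383184-8383213 for RPL26, all on the minus strand. They are chr6:42879596-42879625 on the plus strand for RPL7L1 and chr1:153990742-153990771 on the plus strand for RPS27. For the members that fell they are chr19:39435940-39435969 for RPS16, chr11:17077658-17077687 for RPS13 and chr14:49620617-49620646 for RPL36AL, on the minus strand. The last 10 bases of each window are the first bases of the RefSeq transcript and the others come before that start, which in RPL22, RPS13 and RPL26 among others lies inside the wider span that Gencode gives the gene.
RPL22L1: gaccgcgcggccgtagcttcCTCTCTgctc
RPL22: ctgcgtagttcgctcacctcCCTTTCTaac
RPL9: tacaagtacgtaatgacgacagacgttctt
RPL26: accggaagcagcgtgtagttCTCTTCCCTT
RPL7L1: cgcgccggaagtgcggcgccgtagctagga
RPS27: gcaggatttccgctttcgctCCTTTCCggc
RPS16: ccagggtggcccctagctttCCTTTTCCgg
RPS13: ggcgtttccactctcgctctCCTTTCgttg
RPL36AL: tccgcctgtttcttccctttCCTgttaggc
RPL22L1, RPL26 and RPS27, which rose, begin with a pyrimidine tract, and so do RPS16 and RPS13, which fell. RPL9 and RPL7L1 rose and their annotated first bases are A and G, although RPL9 has a run of 10 pyrimidines within 5 bases of its start. RPL36AL, which fell, starts inside a run of 15 pyrimidines, of which 3 lie from its first base on.

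Among the large subunit proteins, RPL9, which sits near the base of the stalk that recruits translation factors, had the largest rise of a core gene. It was at 749, 916 and 902 CPM in siControl libraries and at 1230, 1150 and 1340 CPM in siDGUOK libraries. All 3 siDGUOK libraries were above all siControl libraries, with siControl replicate 1 the lowest. The means were 856 ± 92.8 and 1240 ± 94.7 CPM (SD, n = 3), a log2 fold change of 0.54 with a standard error of 0.08 (edgeR's adjusted p 0.000125). Without siControl replicate 1 the log2 fold change was 0.45 and without siDGUOK replicate 3 it was 0.47, under the limit of 0.5 in both cases. Of the 50-base windows of the RPL9 transcript, 89.6% have an exact copy elsewhere in the genome.

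RPL26, a protein beside the exit of the nascent chain tunnel, was at 418, 542 and 445 CPM in siControl libraries and at 593, 694 and 707 CPM in siDGUOK libraries. The groups do not overlap, and siControl replicate 2 was the nearest to the siDGUOK libraries. The log2 fold change was 0.51 with a standard error of 0.09 (edgeR's adjusted p 0.000747). That value lies at the limit of 0.5: it was 0.43 without siControl replicate 1, 0.47 without siControl replicate 3, 0.47 without siDGUOK replicate 2 and 0.45 without siDGUOK replicate 3, and RPL26 was also not called with RLE factors (0.50), with mitochondrial genes left out (0.49), at a mean CPM of at least 10 (0.50), with library sizes recomputed (0.49), or with DESeq2 (0.50, shrunken 0.48). It stayed past the adjusted p alone in each of these. Exons of another gene cover 65.3% of its exon bases and 53.7% of its windows have a copy elsewhere.

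The exit tunnel, through which the new polypeptide leaves the large subunit, is lined or ringed by 10 of the proteins listed. Of these RPL26, RPL31, RPL35 and RPL39 rose, RPL4, RPL17, RPL19, RPL22, RPL23A and RPL38 did not pass the test, and the median was 0.17. Over all members 28 of 84 rose, as did 29.7% of the 195 other abundant genes and 10.3% of all genes tested. RPL31 was at 1570, 1880 and 1750 CPM in siControl libraries and at 2290, 2320 and 2280 CPM in siDGUOK libraries. Its siDGUOK libraries were close to each other and above every siControl library (log2 fold change 0.41, standard error 0.07, edgeR's adjusted p 0.000411), and it was chosen for description after its values were seen. RPL39, a very small protein of the tunnel wall, was at 186, 194 and 183 CPM in siControl libraries and at 246, 235 and 261 CPM in siDGUOK libraries. These do not overlap either, with a log2 fold change of 0.40, a standard error of 0.08 and an adjusted p of 0.00147 in edgeR's test. RPL35 rose by 0.26 (edgeR's adjusted p 0.0259), a rise that did not pass the adjusted p whenever siControl replicate 1 or 3 or any of the siDGUOK libraries was left out, with adjusted p between 0.0533 and 0.126.

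The stalk proteins RPLP0, RPLP1 and RPLP2 and their neighbour RPL12, which together draw elongation factors to the ribosome, had log2 fold changes of 0.11, −0.07, −0.13 and 0.19. None of the 4 passed edgeR's adjusted p, 1 had an unadjusted p under 0.05, and DESeq2 placed 1, RPL12, past its adjusted p. RPL5 and RPL11, which enter the ribosome with its smallest RNA and can bind MDM2 outside it, had log2 fold changes of 0.05 and 0.06. Neither passed edgeR's test at an adjusted or an unadjusted p under 0.05, nor DESeq2's. RPL11 was at 1290, 1160 and 1240 CPM in siControl and 1310, 1380 and 1140 CPM in siDGUOK libraries, where both the highest and the lowest of the 6 libraries are siDGUOK libraries.

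The other large subunit genes that rose were RPL10, RPL41, RPL27, RPL7, RPL23, RPL37, RPL30, RPL34, RPL7A and RPL15, by 0.29 to 0.41. RPL10 joins the subunit last, at the site where tRNAs are handled, and stood at 1580, 1750 and 1650 CPM in siControl and 2160, 2150 and 2320 CPM in siDGUOK libraries. The groups are apart by more than the range within either (log2 fold change 0.41, standard error 0.07, edgeR's adjusted p 0.000206). RPL7 was at 1570, 1740 and 1710 CPM in siControl and at 2120, 2100 and 2170 CPM in siDGUOK libraries. Its siDGUOK libraries lie within a narrow range above all siControl libraries (log2 fold change 0.35, standard error 0.07, edgeR's adjusted p 0.000725). RPL34 rose by 0.30 with all libraries, but its adjusted p in edgeR's test was 0.137 without siControl replicate 1, 0.0651 without siControl replicate 3 and 0.156 without siDGUOK replicate 3. RPL10 was chosen after its values were seen, as was RPL34.

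Some of the most abundant large subunit mRNAs were among those whose groups overlapped. RPL13A took the largest share of the members' counts, 3.95% on average, and was at 3500, 3920 and 3670 CPM in siControl and at 3710, 4030 and 3980 CPM in siDGUOK libraries. siControl replicate 2 was above siDGUOK replicate 1, and the log2 fold change was 0.08 with a standard error of 0.07 (edgeR's adjusted p 0.479). RPL3, RPL4 and RPL6 had log2 fold changes of 0.02, 0.04 and 0.01. RPL22, an RNA-binding protein on the outside of the large subunit, was at 433, 434 and 452 CPM in siControl and 407, 407 and 402 CPM in siDGUOK libraries. All its siDGUOK libraries were lower, by a small step that did not pass edgeR's test (log2 fold change −0.12, standard error 0.07, adjusted p 0.292).

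In the small subunit no gene was called in edgeR's test, with 16 higher and 3 lower at an unadjusted p under 0.05, and DESeq2 called none either. RPS15A, a protein of the body of the subunit, came nearest, at 895, 1120 and 950 CPM in siControl and 1360, 1410 and 1410 CPM in siDGUOK libraries. The lowest siDGUOK library was well above siControl replicate 2, the highest control (log2 fold change 0.49, standard error 0.08, edgeR's adjusted p 0.000184). Its log2 fold change was 0.59 without siControl replicate 2 and 0.52 with library totals only, so that RPS15A was called under both settings. RPS27, a zinc-binding protein, was at 823, 948 and 996 CPM in siControl and at 1170, 1340 and 1320 CPM in siDGUOK libraries. These groups do not overlap, and siDGUOK replicate 1 was the lowest of its group (log2 fold change 0.47, standard error 0.08, edgeR's adjusted p 0.000331). It was 0.53 without siControl replicate 3 and 0.51 without siDGUOK replicate 1, past the limit in both.

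RPS3A, RPS25, RPS24, RPS7, RPS12, RPS18 and RPS9 rose by 0.23 to 0.43. RPS25, which helps several viral and cellular mRNAs to bind the ribosome internally, was at 972, 1070 and 1050 CPM in siControl and 1300, 1510 and 1330 CPM in siDGUOK libraries. siDGUOK replicate 2 was the highest and no siControl library reached the siDGUOK range (log2 fold change 0.42, standard error 0.07, edgeR's adjusted p 0.000387), and the gene was chosen after its values were seen. The 3 smallest of these rises did not survive every library left out. In edgeR's test the adjusted p of RPS12 was 0.0637 without siControl replicate 1, 0.0587 without siControl replicate 3, 0.0542 without siDGUOK replicate 1 and 0.0832 without siDGUOK replicate 2. That of RPS9 was 0.101 and 0.139 without siControl replicates 1 and 3 and 0.0822 and 0.132 without siDGUOK replicates 1 and 3, again in edgeR's test. For RPS18 edgeR gave 0.0525 and 0.0852 without siControl replicates 1 and 3 and 0.155 and 0.09 without siDGUOK replicates 2 and 3.

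Of the 3 members that fell, RPS16 and RPS13 belong to the small subunit. RPS16, whose tail reaches the tRNA in the peptidyl site, was at 933, 994 and 937 CPM in siControl and 790, 818 and 796 CPM in siDGUOK libraries. All 3 siDGUOK libraries were lower and close together (log2 fold change −0.25, standard error 0.07, edgeR's adjusted p 0.0112). RPS13 was at 494, 478 and 488 CPM in siControl and at 414, 418 and 401 CPM in siDGUOK libraries. The SDs of both groups were under 10 CPM and the groups do not overlap (log2 fold change −0.24, standard error 0.07, edgeR's adjusted p 0.0188). Its adjusted p was 0.0636 without siControl replicate 1, 0.0944 without siControl replicate 3 and 0.0667 without siDGUOK replicate 3 in edgeR's test, and 0.0523 with no count filter. RPS28, next to the channel where mRNA leaves the subunit, was at 293, 291 and 273 CPM in siControl and 258, 253 and 205 CPM in siDGUOK libraries. siDGUOK replicate 3 was the lowest, and the log2 fold change of −0.26 (standard error 0.09) did not pass edgeR's test (adjusted p 0.0523). Without siDGUOK replicate 1 it was −0.34 with an adjusted p of 0.0302, and without siDGUOK replicate 3 it was −0.17 with an adjusted p of 0.248 in edgeR's test. Its adjusted p was under 0.05 with DESeq2 (0.0274), with RLE factors (0.0448) and with a replicate block (0.028).

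The proteins of the mRNA channel had small values. RPS2, RPS3, RPS15 and RPS23, at the entry and the decoding site, had log2 fold changes of 0.18, 0.06, 0.09 and 0.20. None passed edgeR's adjusted p, 2 had an unadjusted p under 0.05, and DESeq2 placed 1 past its adjusted p. Without siControl replicate 2, RPS2 (0.22) and RPS23 (0.28) had adjusted p of 0.0152 and 0.013 in edgeR's test. Around the exit, RPSA, RPS14 and RPS26 had log2 fold changes of −0.07, 0.08 and −0.18, none of which passed edgeR's test. RPS6, the substrate of the S6 kinases, was at 1910, 2050 and 1940 CPM in siControl and 1900, 2040 and 1940 CPM in siDGUOK libraries. The groups of RPS6 cover nearly the same range.

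**Figure D3:**
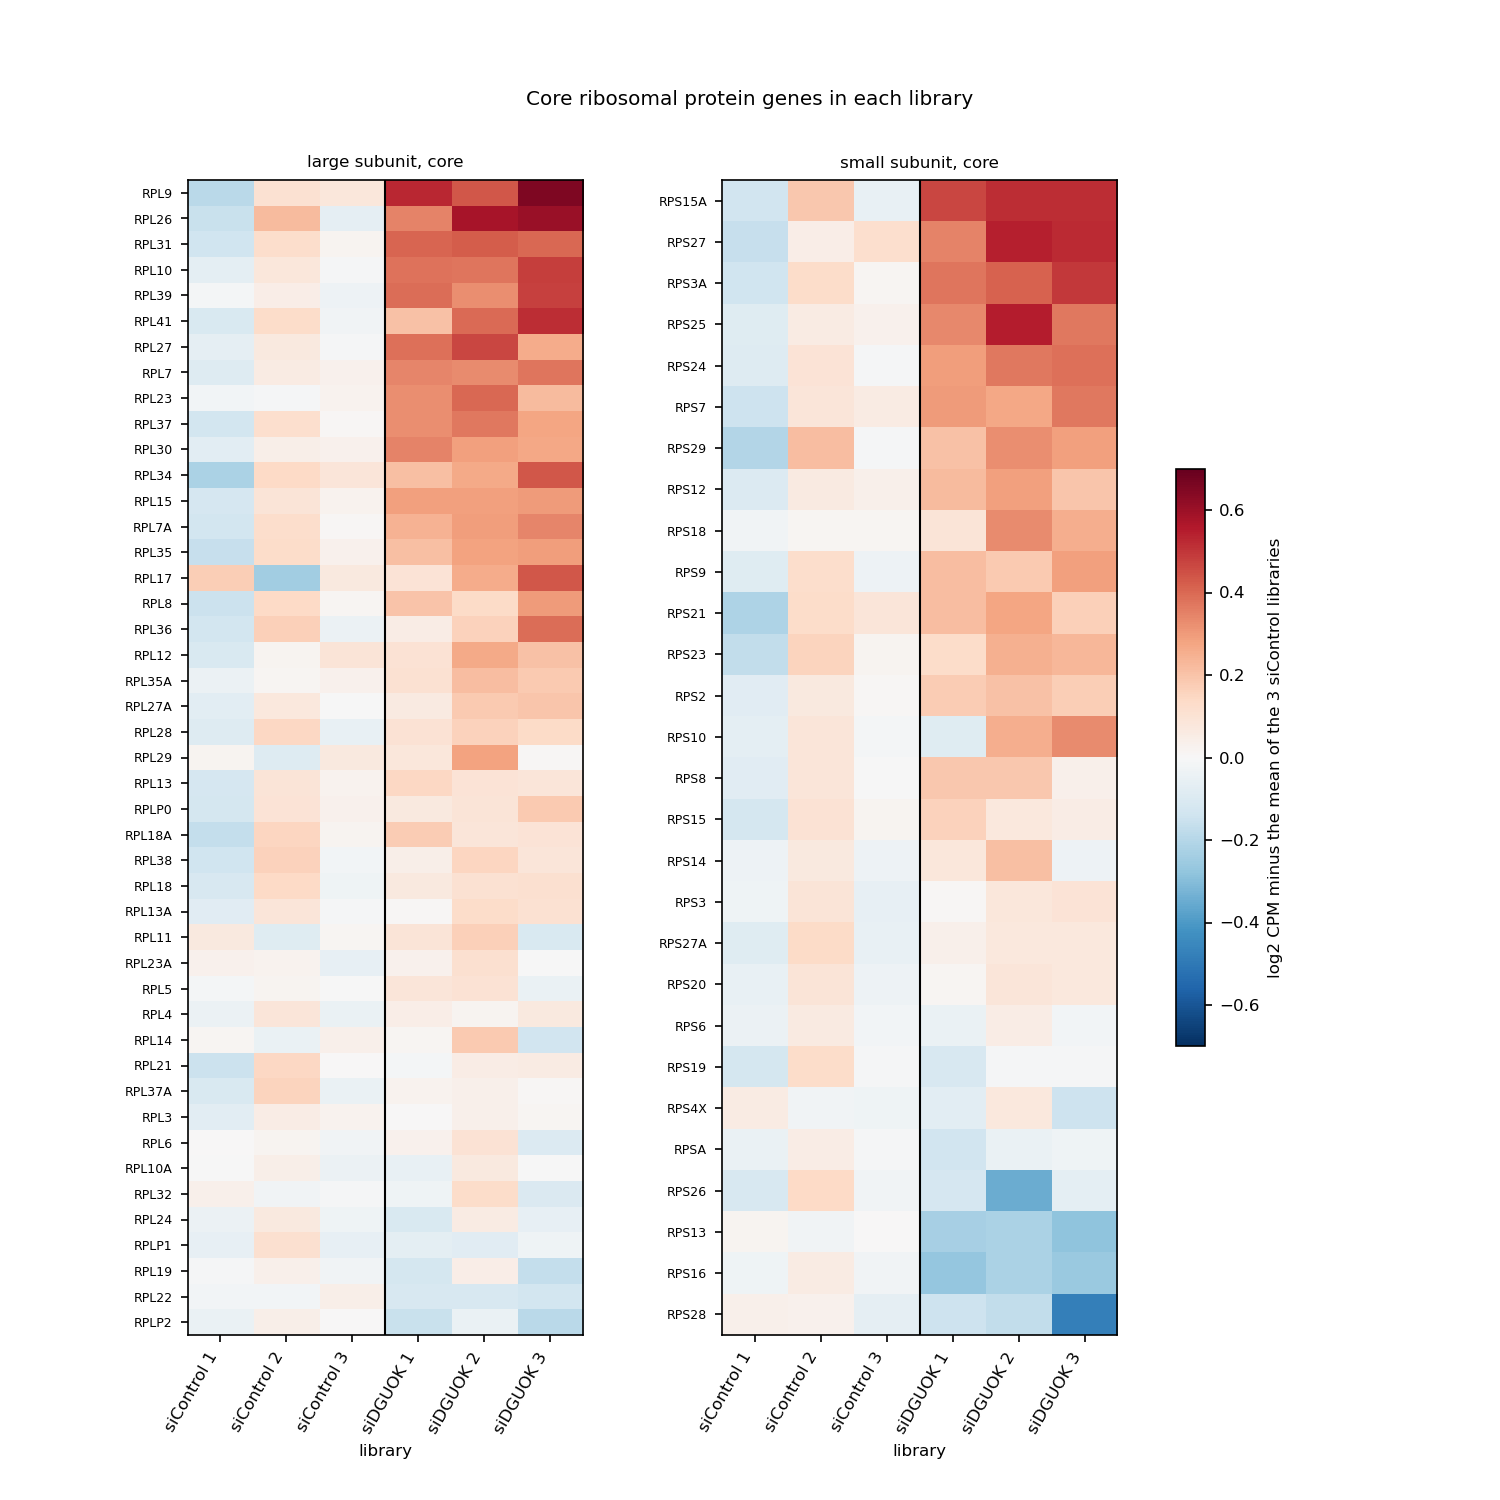
Log2 CPM of core genes, not all of which are drawn, in each library, less the mean of the 3 siControl libraries, with rows ordered by log2 fold change and the vertical line between the groups. Colours run from blue (lower) to red (higher). RPL9 and RPS15A head their panels with all 3 siDGUOK libraries red, RPS16 and RPS13 near the foot have all 3 blue, and siControl replicate 1 is pale blue in most rows.

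The paralogs held the largest change among all members. RPL22L1, which can take the place of RPL22 in the large subunit, was at 71.7, 79.4 and 79.7 CPM in siControl and at 124, 125 and 115 CPM in siDGUOK libraries. The lowest siDGUOK library was far above the highest siControl library. The means were 76.9 ± 4.54 and 122 ± 5.42 CPM (SD, n = 3), a log2 fold change of 0.66 with a standard error of 0.10 (edgeR's adjusted p 0.000084). It was called under each alternative setting and with each library left out, with values from 0.62 to 0.69. Its transcript has copies of 1.08% of its windows elsewhere. Per 100 counts of RPL22 there were 16.5, 18.3 and 17.6 counts of RPL22L1 in siControl and 30.6, 30.8 and 28.7 in siDGUOK libraries. The means were 17.5 ± 0.885 and 30.0 ± 1.11 (SD, n = 3), with a two-sided exact permutation p of 0.1, the smallest that 3 against 3 libraries can give.

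RPL7L1, a relative of RPL7 that works in assembly of the large subunit in the nucleolus, was at 196, 171 and 188 CPM in siControl and 246, 301 and 255 CPM in siDGUOK libraries. Every siDGUOK library was higher, siDGUOK replicate 2 most of all (log2 fold change 0.53, standard error 0.09, edgeR's adjusted p 0.000356). The value was 0.48 without siControl replicate 2 and 0.44 without siDGUOK replicate 2, under the limit of 0.5 in both. Per 100 counts of RPL7, which rose too, there were 11.1 ± 1.28 counts of RPL7L1 in siControl and 12.5 ± 1.54 in siDGUOK libraries (SD, n = 3, two-sided exact permutation p 0.4), and the groups overlap.

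RPL36AL differs little from RPL36A in its protein and is the member of that pair with nearly all the counts. It was at 153, 154 and 134 CPM in siControl and at 106, 119 and 116 CPM in siDGUOK libraries. Every siDGUOK library was lower (log2 fold change −0.37, standard error 0.10, edgeR's adjusted p 0.00889). RPL36A was at 2.78, 1.70 and 3.62 CPM in siControl and 2.54, 1.66 and 1.56 CPM in siDGUOK libraries. These levels overlap and are too low for its log2 fold change of −0.48 (standard error 0.69, edgeR's adjusted p 0.715) to say more.

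RPS27L, a relative of RPS27, was at 142, 143 and 162 CPM in siControl and 168, 188 and 163 CPM in siDGUOK libraries. siDGUOK replicate 3 was barely above siControl replicate 3, and the log2 fold change of 0.22 (standard error 0.09) did not pass edgeR's test (adjusted p 0.113). Per 100 counts of RPS27 there were 16.2 ± 1.14 counts of RPS27L in siControl and 13.6 ± 1.09 in siDGUOK libraries (SD, n = 3, two-sided exact permutation p 0.1, the smallest possible). RPL26L1, almost the same protein as RPL26, was at 28.4, 24.6 and 28.5 CPM in siControl and at 27.7, 32.9 and 44.6 CPM in siDGUOK libraries. The siDGUOK libraries spread widely and overlap the controls (log2 fold change 0.37, standard error 0.18, edgeR's adjusted p 0.185). The log2 fold change of RPL26L1 was 0.15 without siDGUOK replicate 3 and 0.50 without siDGUOK replicate 1. Its ratio to RPL26 was 5.91 ± 1.21 and 5.24 ± 0.93 per 100 counts (SD, n = 3, two-sided exact permutation p 0.6).

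**Figure D4:**
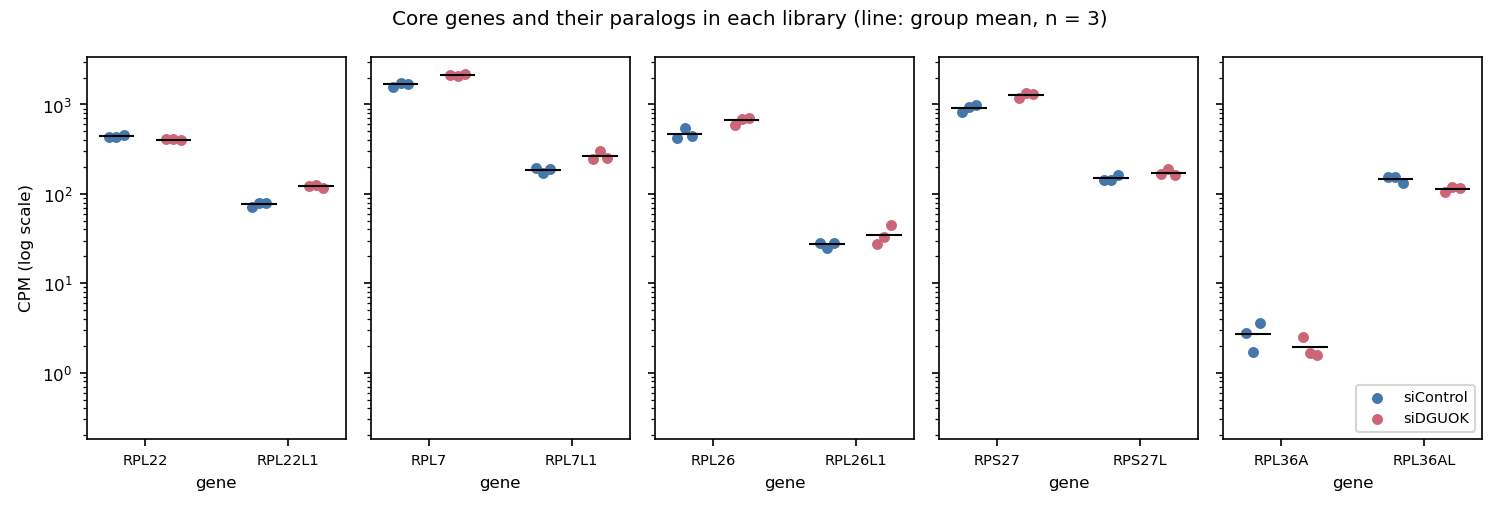
CPM on a log axis of 5 core genes and their paralogs, with a point for each library and a line at the group mean (n = 3). RPL22L1 is the paralog whose siDGUOK points stand clear above its siControl points while those of RPL22 do not, and RPL36A lies near 2 CPM, far below RPL36AL.

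The remaining rows include 5 with few counts. RPL39L, RPL3L, RPL10L, RPL17-C18orf32 and RPS10-NUDT3 did not pass the count filter and were not tested. RPL39L, a paralog best known from testis, had 23 counts in siControl replicate 2, 1 in siControl replicate 3 and 0 in the other 4 libraries. RPL3L, known from striated muscle, had 9 counts in siControl replicate 1, 7 in siDGUOK replicate 1 and 28 in siDGUOK replicate 2, and RPL10L, known from testis, had its 50 counts in siDGUOK replicate 1 alone. The readthrough rows had 5 counts (RPL17-C18orf32) and 17 counts (RPS10-NUDT3) over all libraries. RPS19BP1 was tested and its log2 fold change was 0.14 with a standard error of 0.13 (edgeR's adjusted p 0.537). RPS4Y1 was tested too, and its levels are not given because it is Y-linked.

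Levels between members can be compared only per length, here as CPM per kilobase of coding sequence averaged over both groups. On that scale the median of the 77 core genes was 2350, with quartiles of 1810 and 3210. RPL41, with a coding sequence of 75 bases, had the highest value at 16500, followed by RPL37A at 6740, RPL13A at 6250, RPL31 at 5370 and RPS18 at 5140. A coding sequence that is short beside its UTRs raises a value on this scale, as in RPL41. Only 4 core genes were under 500, which are RPL36A (7.26), RPL17 (116), RPS10 (133) and RPS26 (184), and all of them were chosen for mention after these values were seen.

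Copies and overlaps with other genes limit how reads of members can be placed, at low and at high levels. For RPL17, 88.0% of the 50-base windows of the transcript have an exact copy elsewhere in the genome and 96.9% of its exon bases lie in exons of another gene. For RPS10 the values are 94.6% and 84.0%, for RPL36A 49.2% and 43.8%, and for RPS26 68.8% of windows are copied. Reads with more than 1 alignment, or on more than 1 gene, were not counted, so levels of such genes are lower bounds and the part of this in each level was not tested. Over the 77 core genes the median share of copied windows was 34.5%, 27 genes had over 50%, and RPL38 alone had none. Many copies also occur at values above the upper quartile on the same scale, as in RPL41 with 89.0% of its windows copied and RPS27 with 95.0% at a level of 4370. They occur between the lower quartile and the median as well, as in RPS3A with 98.2% at 1910 and RPL9 with 89.6% at 1820. RPL21 has 100% of its windows copied and had 421 to 516 CPM. Across these 77 genes the share of copied windows and the log2 fold change had a Pearson r of 0.19 and a Spearman rho of 0.18, a description of genes that share the same libraries.

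Such copies can lie in processed pseudogenes, and how many of them do was not counted. The count table has 549 rows of ribosomal protein pseudogenes, of which 406 had a count and 78 could be tested. Together they held 0.0575% ± 0.00313 of counts in siControl and 0.0714% ± 0.00555 in siDGUOK libraries (SD, n = 3). Every siDGUOK library, at 0.0763%, 0.0724% and 0.0654%, was above the siControl libraries, at 0.0539%, 0.0597% and 0.0588%. The median log2 fold change of the 78 was 0.33, with 2 that rose and 1 that fell, and the others did not pass edgeR's test. Over all genes tested 10.3% rose and 9.35% fell. The row with most counts was RPL9P9, at 130, 174 and 159 CPM in siControl and 202, 198 and 219 CPM in siDGUOK libraries, which like RPL9 rose (log2 fold change 0.42, standard error 0.10, edgeR's adjusted p 0.00573). RPS28P7 fell from 43.5 ± 5.39 to 29.0 ± 0.935 CPM (SD, n = 3, log2 fold change −0.59, standard error 0.15, edgeR's adjusted p 0.00947). Whether these counts come from the pseudogene or from its parent gene was not tested, and both were chosen after their values were seen.

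The TOP motif was searched as a C at the annotated first base followed by at least 4 bases that are each C or T, on the gene's own strand. RefSeq start sites matched 70 of the 89 members and 62 of the 77 core genes. Of those 62, 42 carried the motif (67.7%), against 4.07% of all 35116 promoters of the same length. With a looser search, a run of at least 8 C or T within 5 bases of the annotated start, 75.8% of the core genes and 11.5% of all promoters matched. Among the 42 core genes with the stricter motif 14 rose and 2 fell, with a median log2 fold change of 0.14. Among the 20 without it 5 rose and 0 fell, with a median of 0.06, and the difference was not tested. Some genes without a match, such as RPS28, have a pyrimidine tract a few bases from the annotated start.

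Other features followed the change only weakly. Across the 77 core genes the Pearson r between log2 fold change and transcript GC content was −0.09, that with log2 coding length −0.12 and that with log2 transcript length −0.18 (Spearman rho −0.32), over genes that share libraries and are not independent. The r with log2 mean CPM was 0.36, with a rho of 0.18. The 28 core genes that hold an annotated snoRNA within their span on their own strand had 9 that rose, and the 49 others had 17. Whether each snoRNA lies in an intron was not checked.

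Several members are known from Diamond-Blackfan anemia, a failure of red cell production caused by loss of 1 copy of a ribosomal protein gene. Of 18 such genes 9 rose in edgeR's test, 9 did not pass it and 0 fell, with a median of 0.26, where 28 of the 84 members rose. Of all genes tested 10.3% rose, as did 29.7% of the 195 other abundant genes. At an unadjusted p under 0.05, 11 of the 18 were higher and 1 lower, as by DESeq2's adjusted p. RPL26, RPL31 and RPL35 are among those that rose, and RPL5, RPL11 and RPS26 among those that did not pass. Single libraries decided some of these: RPL35 lost its place without any 1 of 5 libraries and RPS29 rose by 0.38 without siControl replicate 2 (edgeR's adjusted p 0.00508). RPS19, the gene most often mutated in that disease, was at 1360, 1620 and 1470 CPM in siControl and 1370, 1470 and 1470 CPM in siDGUOK libraries. Its siDGUOK libraries lie inside the siControl range.

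The study's supplement lists genes that lead an rRNA processing set in these libraries, and 14 of them are members. Of these 13 rose and 3 were called, with a median of 0.41, and RPL8 was the one that did not pass edgeR's test (log2 fold change 0.21, adjusted p 0.0689). Without siControl replicate 2 the log2 fold change of RPL8 was 0.28, with an adjusted p of 0.0113 in edgeR's test. RPL8 also passed with DESeq2 (0.0421), by which all 14 rose, with a replicate block (0.0494), with library totals only (0.0449) and with the other count filters (0.0206 and 0.0363). Since the study chose that list for its direction in the same libraries, the count is not independent evidence of a rise.

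The ribosome also has proteins that the naming rule does not reach. FAU, which encodes a small subunit protein as part of a fusion, had a log2 fold change of 0.25, and RACK1, a scaffold on the small subunit, had 0.04. Neither passed edgeR's adjusted p, and DESeq2 placed neither past its own. FAU was at 381, 505 and 521 CPM in siControl and at 535, 538 and 606 CPM in siDGUOK libraries, where siControl replicate 1 is the lowest.

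Other mRNAs of the TOP class, which encode elongation and initiation factors and a few companions, had a median of 0.18 over 17 genes. Of these TPT1, EIF3E, EEF1B2, EEF1A1 and NAP1L1 rose, EIF4B and HNRNPA1 fell, and 10 did not pass edgeR's test. Of all genes tested 10.3% rose and 9.35% fell, and of the 195 abundant genes outside the members 29.7% rose and 34.4% fell. By DESeq2's adjusted p, 7 of the 17 were higher and 3 lower. TPT1, one of the most abundant TOP mRNAs, was at 3430, 3460 and 3590 CPM in siControl and 4970, 5280 and 4920 CPM in siDGUOK libraries. The groups are far apart for their spread (log2 fold change 0.53, standard error 0.06, edgeR's adjusted p 4.91e-06), and TPT1 was the gene called in this list. EEF1A1, which brings tRNAs to the ribosome, was at 14700, 13900 and 14400 CPM in siControl and at 17700, 17300 and 16900 CPM in siDGUOK libraries, a rise of 0.27 (standard error 0.06, edgeR's adjusted p 0.00216).

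The 18 regulators of TOP mRNAs and of mTORC1 that were listed had a median of −0.04. Of these 3 rose, 1 fell and 14 did not pass edgeR's test, where 10.3% of all genes tested rose and 9.35% fell. In 3 every siDGUOK library lay above every siControl library and in 5 every one lay below. Over all genes tested these shares were 18.7% above and 17.3% below. MTOR was among the 5 that lay below, with a log2 fold change of −0.38 and an adjusted p of 0.0641 in edgeR's test. DDIT4, an inhibitor of mTORC1 that acts through TSC2, was at 181, 206 and 198 CPM in siControl and 382, 378 and 373 CPM in siDGUOK libraries. EIF4EBP1, the translation repressor that mTORC1 inactivates, was at 56.8, 79.2 and 51.9 CPM in siControl and 107, 104 and 105 CPM in siDGUOK libraries. Both were higher in every siDGUOK library, with log2 fold changes of 0.95 and 0.74, standard errors of 0.08 and 0.13 and edgeR's adjusted p of 6.3e-08 and 0.000536. DEPTOR, an inhibitor bound to mTOR itself, was at 3.10, 6.50 and 7.53 CPM in siControl and 0.865, 1.05 and 0.46 CPM in siDGUOK libraries. It was low in all libraries and lowest in the siDGUOK group (log2 fold change −2.85, standard error 0.63, edgeR's adjusted p 0.00292), and DESeq2's shrunken value was −1.26 with a standard error of 0.27. SESN2, another inhibitor of the pathway, rose by 0.48 (edgeR's adjusted p 0.0258), LARP1, which binds the TOP motif, had −0.21 with an adjusted p of 0.0925 in the same test, and MYC, an activator of ribosomal protein genes, had 0.02.

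Ribosomal proteins are met by dedicated chaperones and importins before they reach the nucleolus. Of 12 such genes HEATR3, which carries RPL5, was called higher, NAP1L1 rose, TNPO1 fell and 9 did not pass edgeR's test. Their median was 0.01. Of all genes tested 7.42% were called higher, 10.3% rose and 9.35% fell. HEATR3 was at 56.7, 49.2 and 50.6 CPM in siControl and 68.8, 85.1 and 74.1 CPM in siDGUOK libraries. The groups do not overlap and siDGUOK replicate 2 is the highest (log2 fold change 0.54, standard error 0.12, edgeR's adjusted p 0.00385). Without siControl replicate 2 the value was 0.50 and without siDGUOK replicate 2 it was 0.46, neither of them called. CDKN1A, a cell cycle inhibitor induced when ribosome assembly fails, rose from 161, 175 and 183 CPM to 223, 228 and 245 CPM (log2 fold change 0.42, standard error 0.08, edgeR's adjusted p 0.00125).

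The proteins of the mitochondrial ribosome form a separate set of 78 genes, all of which were tested. Of these 14 rose and 0 fell in edgeR's test, with 3 lower at an unadjusted p under 0.05 and 1 lower by DESeq2, and 5 were called higher, where 10.3% of all genes tested rose and 7.42% were called higher. Their median log2 fold change was 0.08, against 0.15 for the cytosolic members, and the difference was not tested.

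**Figure D5:**
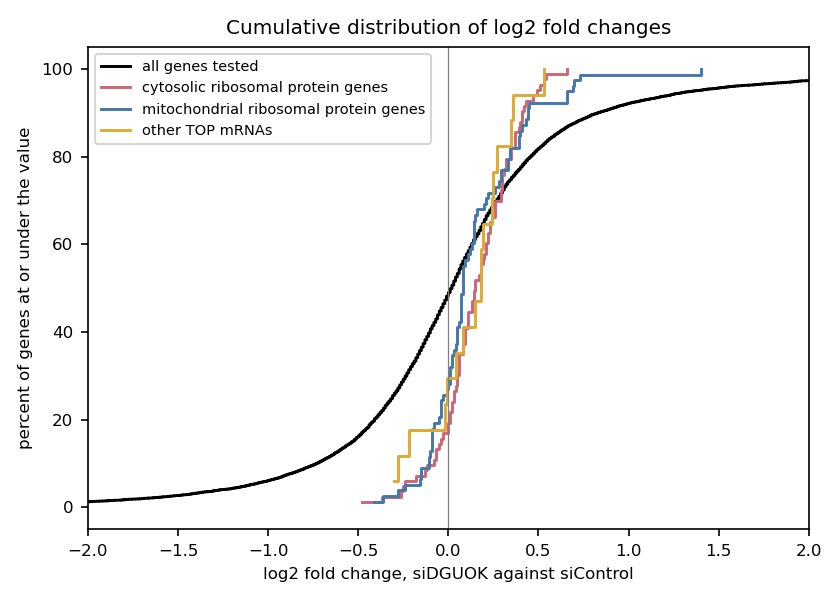
Percent of genes at or under each log2 fold change of siDGUOK against siControl for all genes tested, the cytosolic ribosomal protein genes, the mitochondrial ribosomal protein genes and the other TOP mRNAs, with the x axis limited to 2 in either direction. The curve of the cytosolic genes is steep and crosses 50% at 0.15, while that of all genes is broad and crosses it at 0.02.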

How the data were processed

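Before alignment the authors took out reads matching rRNA, tRNA, spike-ins or adapters. They used STAR 2.6.1 on GRCh38 (Gencode 27), removed low-complexity alignments, then counted genes in featureCounts 1.6.5 at defaults with a minimum quality of 10. The deposited counts are whole numbers without normalization. Those defaults ignore strand and drop reads with several alignments or genes, so genes with pseudogene copies, overlaps or antisense partners are uncertain. The library protocol in the labels is an unfilled template (poly(A) selection or rRNA depletion, kit not fixed; the molecule field says polyA RNA), and the treatment field names siControl for all 6 samples, so groups came from titles.

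In R 4.3.3, all rows were fitted with edgeR 4.0.16: filterByExpr (minimum count 10), TMM, robust quasi-likelihood on condition alone, Benjamini-Hochberg adjustment over 14476 genes. Standard errors are |log2 fold change| over the root of F. CPM use TMM-scaled totals. Scripts were tested on simulated counts. Gencode 44 gave lengths and exons (89 of 89 members), and windows of 50 bases were searched in GRCh38 on both strands.

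Values in every library are given for called members, the 5 largest rises and falls, paralog pairs, the largest and smallest shares, DGUOK and called genes of the pathway lists; others were chosen after values were seen. Some items are withheld and not named. Members and lists were chosen with earlier results of these data known. Alternatives were DESeq2 1.42.0 (plain and shrunken), RLE, upper-quartile or no factors, factors without members or without mitochondrial genes, other count filters, a log2 limit of 0.25, a replicate block and each library left out. Library sizes recomputed after the count filter was added after seeing the data.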

Additional observations from a re-analysis of the deposited data

How the results depend on the processing

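No headline value changed sign under any alternative, nor did the log2 fold change of a gene given in every library by the rule in the processing notes, but other members near 0 did: 68 positive and 16 negative values became 63 and 21 without siDGUOK replicate 2. With a log2 limit of 0.25 in place of 0.5, 25 members were called higher and 2 lower. The share of all genes past that limit was not counted. By the adjusted p alone, 10.3% of all genes tested rose and 9.35% fell. Of the 195 other abundant genes 29.7% rose and 34.4% fell. With no count filter the median of the members less that of all genes was 0.01, because the median of all genes was then 0.14. With each library left out in turn, members called higher ranged from 2 to 5, members called lower stayed at 0, members that rose from 22 to 33 and members that fell from 2 to 4. The members' median ranged from 0.11 to 0.19, its difference from all genes from 0.08 to 0.16, and DGUOK from −2.72 to −2.42. The other settings gave 3 to 5 called higher, 28 to 34 that rose and medians of 0.14 to 0.17. Library sizes recomputed after the count filter, tried after seeing the data, gave 3 called, 28 that rose and 4 that fell, RPL26 being lost at 0.49.

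The replicate numbers share no pairing: deviations of same-numbered libraries had r of 0.024, 0.0166 and −0.00224. With a replicate block 4 members were called higher, 0 lower, 33 rose and 4 fell, with a median of 0.15, and no call of a member changed. Depth limits RPL36A (230 counts in all) and the 5 untested rows most.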
